A study of Mus musculus with 7 samples.

Results

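Genes that handle heme and iron were followed through leukocytes of the mouse heart, 10 in number: Hmox1, Blvra, Blvrb, Fth1, Ftl1, Slc40a1, Hp, Slc11a1, Tfrc and Trf. They were chosen by symbol, all 10 had a row in each of the 7 single-cell matrices, and they are 10 of the 27514 genes that the annotations of these matrices share. Unique molecular identifiers (UMIs), which count single captured transcripts, were summed over the cells of a class or state and are given as CPM, the UMIs of a gene scaled to a common total of the sum. The Hba-a1 and Hbb-bs genes, which encode hemoglobin chains, served as a measure of red cell RNA.

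All mice were C57BL6/J. Infarcts were made by permanent ligation of the left anterior descending coronary artery, so the ischemic tissue was not reperfused. Male mice gave 5 libraries of CD45+ heart leukocytes, at steady state without surgery and on days 1, 3, 5 and 7 after infarction, from 5, 5, 5, 5 and 3 pooled mice. A pool of CD11b+ myeloid cells from infarcted hearts of male mice carried hashtag antibodies for day 1 (5 mice), day 3 (5 mice) and day 5 (3 mice). The ages of these mice are not stated in the sources used here. In both experiments the infarct, its border and adjacent viable muscle were digested with enzymes at 37 °C, and cells reached by an intravenous CD45.2 antibody were gated out. The CD45+ libraries also had a step that lowers neutrophil numbers, so the counts of neutrophils there say nothing of their share in the heart. A blood and heart pool of CD11b+ cells came from mice of 8 to 10 weeks, as controls without surgery (3 mice), on days 1 and 3 after sham surgery (3 mice each) and on days 1 and 3 after infarction (5 mice each). Its cells were Ter119-, B220- and NK1.1-, and Ly6G+ and Ly6G- cells were mixed at about equal numbers. The blood was lysed of red cells and the heart was mechanically dissociated. The pool carried 7 hashtags that the labels do not pair with tissue or condition, so its hashtags are called hashtag 1 to hashtag 7. Their values are given one by one as samples, and no test sets one hashtag against another. Because mice were pooled within each time point, a spread between sums is the spread between experiments or hashtags and not between mice.

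The 19026 cells used came from libraries of 552 to 11826 barcodes with medians of 3594 to 18082.5 UMIs per cell. Any 2 libraries shared at most 28 cell barcodes. The defining markers of the neutrophil class were present in every neutrophil sum, with 12 of 12 markers detected. The class was named from these same markers, on clusters made without the heme and iron genes, so their detection is no separate check of the name. The monocytes/macrophages of the CD45+ day 1 library stood apart: 12 of 12 neutrophil markers were detected there at 16133 CPM in sum, against 147 to 1764 CPM in the other CD45+ libraries (Ly6g at 0 at steady state and on days 5 and 7), 302 to 1068 CPM in the CD11b+ pool and 201970 CPM in the neutrophils of the same library. In the other direction, monocyte/macrophage markers summed to 1256, 6659, 8721 and 12384 CPM in CD45+ neutrophils on days 1, 3, 5 and 7. Macrophages of these libraries held 9749, 40696, 73626 and 73670 CPM of them. Neutrophils of the CD11b+ pool held 2929.5, 3078 and 4034.5 CPM on days 1, 3 and 5. The part of macrophage RNA in the neutrophil levels and their day changes was not tested. The CD11b+ pool had 17.4% of its barcodes above the limit of 10% mitochondrial UMIs, and these were left out. In such sums, fewer transcripts per cell and fewer cells that hold the transcript cannot be told apart.

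Macrophages take up dying red cells and free heme, and heme oxygenase 1 (Hmox1) opens the heme ring to give iron, carbon monoxide and biliverdin. Biliverdin is reduced to bilirubin by biliverdin reductase A (Blvra), and Blvrb encodes biliverdin reductase B. The released iron is stored in ferritin, which is built of heavy (Fth1) and light (Ftl1) chains, or leaves the cell through ferroportin (Slc40a1). Haptoglobin (Hp) binds free hemoglobin, transferrin (Trf) carries iron in plasma and its receptor (Tfrc) brings it into cells, and Slc11a1 (Nramp1) moves metal ions out of phagosomes. Bleeding and cell death in an infarct bring heme and iron to the phagocytes that clear the tissue.

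Of the 10 transcripts, 4 carry iron-responsive elements, hairpins that bind iron regulatory proteins when iron is scarce. The elements are shown because they divide the genes: in a 5′ UTR they let translation, and in a 3′ UTR transcript stability, depend on cell iron, so that transcript counts read the 2 kinds differently. The search was for a hairpin with a bulged C and the loop CAGTGN on the transcribed strand of GENCODE M21 transcripts (GRCm38), and the loop is in capitals. A 5′ UTR element was found in Fth1 (chr19:9982733-9982759, + strand), Ftl1 (chr7:45459780-45459806, - strand) and Slc40a1 (chr1:45925466-45925492, - strand):
Fth1: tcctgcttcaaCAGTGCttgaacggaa
Ftl1: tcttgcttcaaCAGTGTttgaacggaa
Slc40a1: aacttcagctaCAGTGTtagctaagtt
Tfrc had 4 elements in its 3′ UTR, of which the first lies at chr16:32631220-32631246 and the last at chr16:32631711-32631737 on the + strand:
Tfrc at 32631220: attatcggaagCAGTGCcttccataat
Tfrc at 32631599: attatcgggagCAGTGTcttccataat
Tfrc at 32631664: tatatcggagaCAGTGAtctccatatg
Tfrc at 32631711: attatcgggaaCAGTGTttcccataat
By the same search 31 of 21181 genes (0.146%) had such an element in a 5′ UTR and 144 of 21166 (0.68%) in a 3′ UTR. The search allowed 5 paired bases beside the loop, G to T pairs included. A match describes these letters and is no measurement of binding.

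Class differences were tested over pairs of sums, neutrophils against monocytes/macrophages of the same library or hashtag, with edgeR's quasi-likelihood test and Benjamini-Hochberg adjustment over all genes. In the infarcted heart there were 6 pairs (days 1, 3 and 5 of both experiments), and 57.0% of the 10164 genes tested passed, 23.9% higher and 33.1% lower in neutrophils. Of the heme and iron genes, 6 of 10 passed, a share close to that background: 3 lower in neutrophils (Hmox1, Blvra and Blvrb) and 3 higher (Hp, Slc40a1 and Fth1). Another heme oxygenase, Hmox2, did not pass (-0.42, edgeR adjusted p = 0.145). Without the pairing of sums by library or hashtag, Hp (adjusted p = 0.144), Slc40a1 (adjusted p = 0.101) and Fth1 (adjusted p = 0.152) no longer passed. In the blood and heart pool there were 7 pairs and 83.5% of 10536 genes passed (38.1% higher and 45.5% lower), with 8 of the 10 genes called, 6 higher and 2 lower (3 higher and 4 lower with total counts). Scaling matters here: with total counts in place of TMM factors the median log2 difference of all genes moved from -0.22 to -0.61 in the heart and from -0.19 to -0.79 in the pool, and calls split into 1568 higher and 4212 lower in the heart (2429 and 3369 with TMM) and into 2639 and 6212 in the pool (4011 and 4789).

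**Figure D1:**
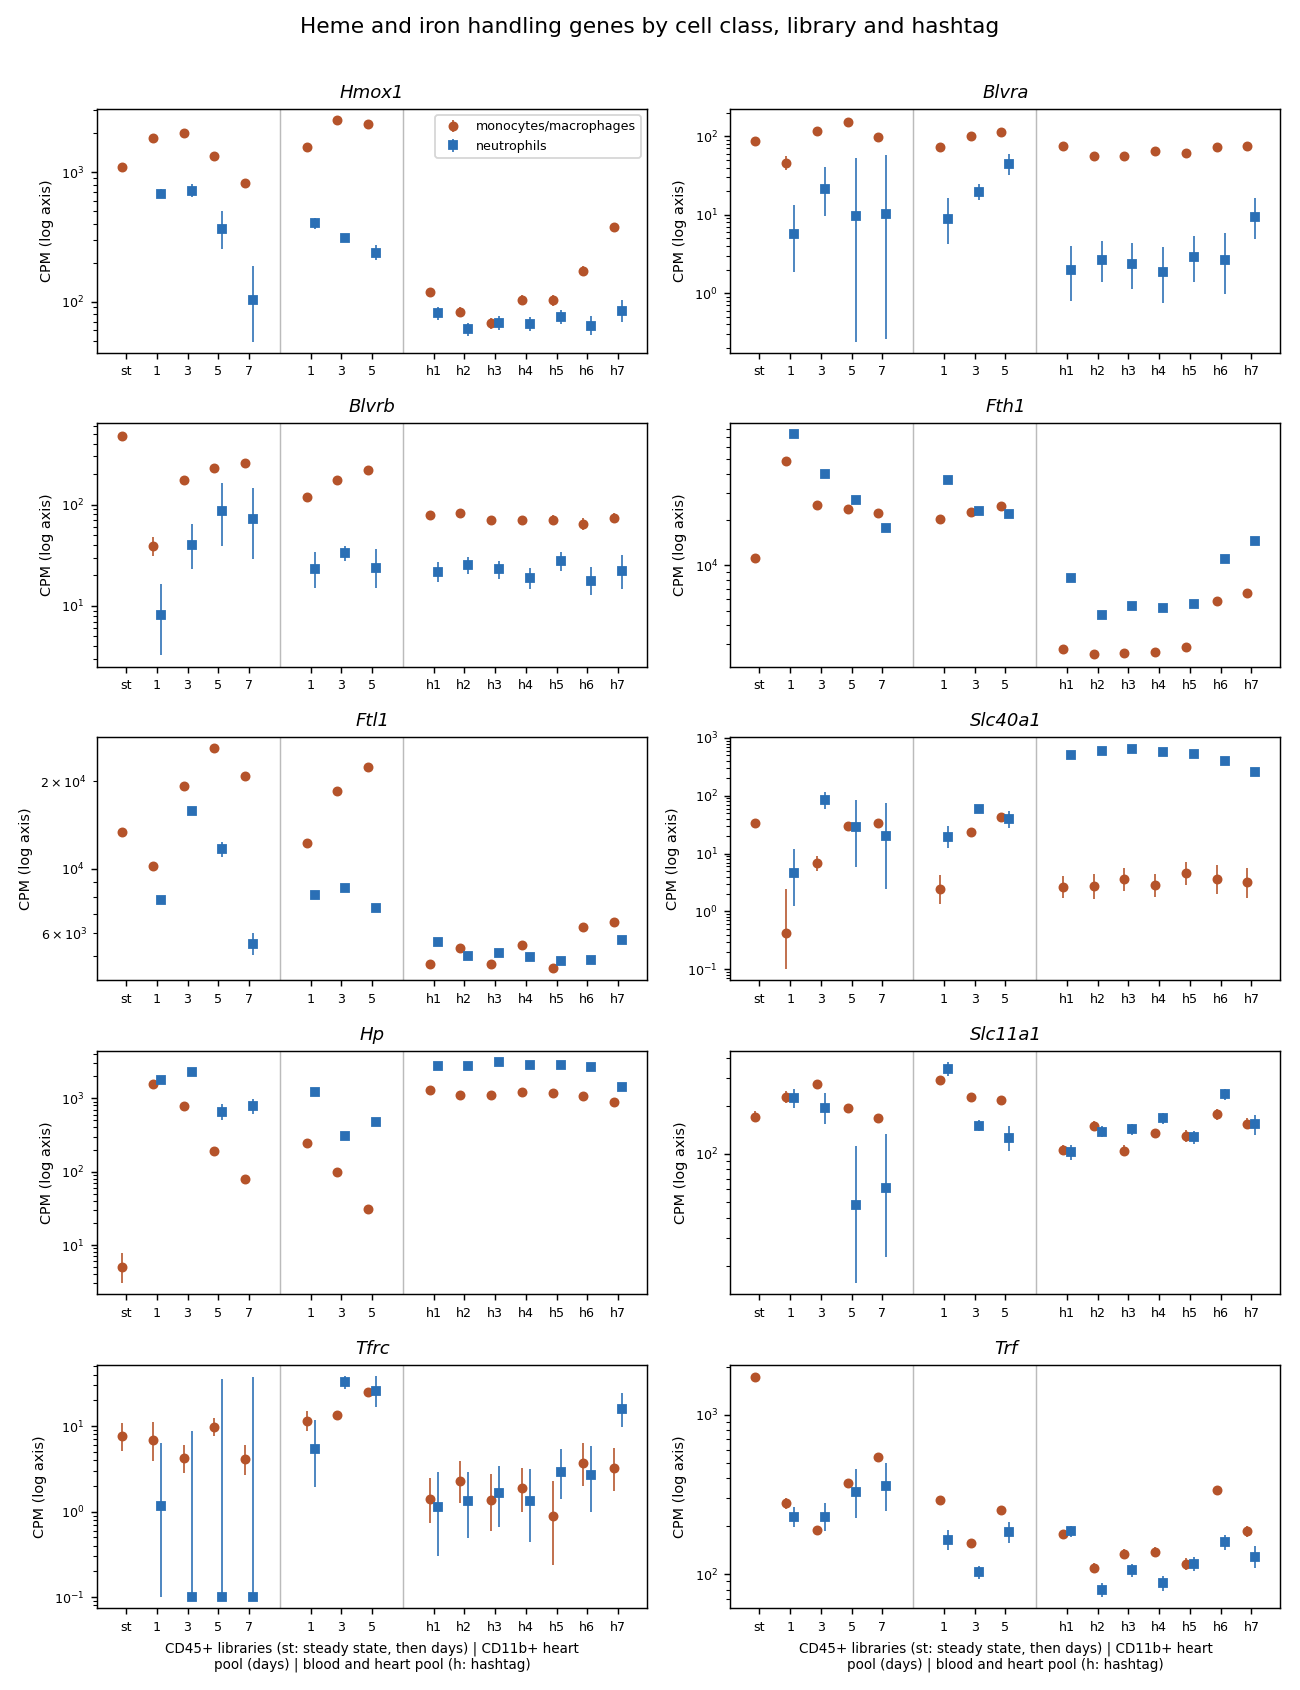
Level of each heme and iron gene (CPM, log axis) in monocytes/macrophages and neutrophils of every library or hashtag; bars are exact Poisson 95% intervals, which cover counting error only, and values of 0 are drawn at 0.1. Hmox1 and Blvra of heart monocytes/macrophages lie above all heart neutrophil sums, while Slc40a1 reaches 261 to 647 CPM in the neutrophils of the blood and heart pool.

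Hmox1 (chr8:75093621-75100589, + strand) was most abundant in heart monocytes/macrophages. Its level was 1085 CPM in the steady state library and 1829, 2007, 1330 and 819 CPM in those of days 1, 3, 5 and 7, and 1559, 2507 and 2360 CPM on days 1, 3 and 5 in the CD11b+ pool. Heart neutrophils held 679, 718, 363 and 102 CPM on days 1, 3, 5 and 7 in the CD45+ libraries (10 UMIs on day 7) and 402, 308 and 239 CPM on days 1, 3 and 5 in the pool. On days 1 to 5 the groups did not overlap, and Hmox1 was lower in neutrophils in 6 of 6 pairs. The fitted difference was -1.82 on the log2 scale (SE 0.31, edgeR adjusted p = 7.59e-05). Over the days of the fit the lowest macrophage value (1330 CPM, exact 95% interval 1303 to 1358) lay above the highest neutrophil value (718 CPM, interval 639 to 803). The macrophages of day 7, outside the fit, held 797 to 842 CPM by their interval, which touches that of day 3 neutrophils.

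In cells thinned to 2000 UMIs each, Hmox1 was seen in 60.9% of monocytes/macrophages at steady state and in 76.1%, 79.9%, 52.9% and 40.5% on days 1, 3, 5 and 7 (86.5%, 93.5%, 96.0%, 85.3% and 80.9% before thinning). Neutrophils of the CD45+ libraries had it in 56.3%, 57.8% and 30.0% of cells on days 1, 3 and 5 (69.9%, 68.2% and 35.0% before thinning). Thinned shares leave out cells under 2000 UMIs, whereas shares before thinning cover all cells of the class. B cells and T cells of day 7 had it in 15.3% and 11.6% of thinned cells, at 83.5 and 84.0 CPM. Their median depths were 2756 and 3727 UMIs, against 10629.5 UMIs in macrophages. The 102 CPM of day 7 neutrophils is near this lymphocyte level, and whether it is background RNA was not tested. The other neutrophil sums of the heart held at least 239 CPM.

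In the blood and heart pool Hmox1 was scarce in both classes. Monocytes/macrophages held 118, 82.8, 68.1, 104, 102, 173 and 378 CPM in hashtags 1 to 7, and neutrophils 61.2 to 84.5 CPM. The 7 macrophage values included the highest in hashtags 6 and 7, and the ranges of the classes overlapped. The fitted difference of -0.18 did not pass (edgeR adjusted p = 0.562), and its sign depended on the setting: it was -0.78 and called with total counts, and +0.07 without hashtag 7. By CPM only 1 of 7 hashtags was higher in neutrophils, by 0.007 on the log2 scale, and the lowest difference was -2.147. Tissue, condition and dissociation differ between this pool and the digested hearts and cannot be told apart.

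The biliverdin reductases followed the same order between classes. Blvra (chr2:127070665-127097084, + strand) held 45.9 to 152 CPM in the 6 heart monocyte/macrophage sums of days 1 to 5 and 5.76 to 44.4 CPM in the neutrophil sums. The groups did not overlap, Blvra was lower in neutrophils in 6 of 6 pairs, and the fitted difference was -2.07 (SE 0.26, edgeR adjusted p = 3.56e-06). In the pool of blood and heart it held 55.5 to 76.1 CPM in monocytes/macrophages and 1.89 to 9.47 CPM in neutrophils, a difference of -3.87 (SE 0.16, edgeR adjusted p = 1.63e-09, 7 of 7 hashtags). Blvrb (chr7:27447978-27466144, + strand) was lower in neutrophils in 6 of 6 heart pairs by a fitted -2.0 (SE 0.25, edgeR adjusted p = 3.39e-06) and in 7 of 7 hashtags of the pool by -1.11 (SE 0.12, edgeR adjusted p = 2.31e-06). In log2(CPM + 1), without TMM factors, the 7 hashtags differed by -1.848 to -1.328, all further from 0 than the fitted value. The heart ranges of Blvrb overlapped, because macrophages of the CD45+ day 1 library held only 38.9 CPM while neutrophils of CD45+ day 5 held 86.0 CPM. That neutrophil value comes from a small sum, of 40 cells and 104690 UMIs.

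Ferritin heavy chain, Fth1 (chr19:9980598-9985098, + strand), was among the most abundant transcripts of every heart sum. Monocytes/macrophages held 11148 CPM at steady state and 48756, 24904, 23329 and 22199 CPM on days 1, 3, 5 and 7, and 20058, 22509 and 24677 CPM on days 1, 3 and 5 of the CD11b+ pool. Neutrophils held 73046, 39762, 27032 and 17660 CPM on days 1, 3, 5 and 7, and 36607, 22728 and 21717 CPM on days 1, 3 and 5 of the pool. The highest values of both classes were those of day 1 in the CD45+ library, where neutrophil markers were also high among the macrophages, and the ranges overlapped. Fth1 was higher in neutrophils in 5 of 6 heart pairs, and the fitted difference of +0.70 (SE 0.28, edgeR adjusted p = 0.0378) was the weakest of the 6 calls. It was lost without CD45+ day 3 (adjusted p = 0.139), without CD11b+ day 1 (adjusted p = 0.11) or without CD11b+ day 3 (adjusted p = 0.0725), and with total counts (+0.36, adjusted p = 0.164).

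Fth1 of monocytes/macrophages of the blood and heart pool was 2566 to 2854 CPM in hashtags 1 to 5, 5778 in hashtag 6 and 6491 in hashtag 7. Neutrophils held 4650 to 8251 CPM in hashtags 1 to 5, 11018 in hashtag 6 and 14530 in hashtag 7. Hashtags 6 and 7 were thus the highest in both classes, and Fth1 was higher in neutrophils in 7 of 7 hashtags (+1.65, SE 0.13, edgeR adjusted p = 2.12e-07). In log2(CPM + 1), without TMM factors, the 7 hashtags differed by 0.857 to 1.57, all below the fitted value.

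Ferritin light chain, Ftl1 (chr7:45457944-45459884, - strand), ran the other way in the heart. Monocytes/macrophages held 13358 CPM at steady state and 10215, 19238, 25995 and 20926 CPM on days 1, 3, 5 and 7, and 12250, 18517 and 22428 CPM on days 1, 3 and 5 of the CD11b+ pool. Neutrophils held 7812, 15880, 11663 and 5511 CPM on days 1, 3, 5 and 7, and 8090, 8600 and 7345 CPM in the pool. Ftl1 was lower in neutrophils in 6 of 6 pairs, but the fitted difference of -0.51 (SE 0.28) did not pass (edgeR adjusted p = 0.134), and the ranges overlapped. Ftl1 of the blood and heart pool was 4560 to 6570 CPM in monocytes/macrophages and 4818 to 5683 CPM in neutrophils. The call there (+0.53, SE 0.14, edgeR adjusted p = 0.00427) turned to -0.05 with total counts, and only 3 of 7 hashtags were higher in neutrophils by CPM. Reads of ferritin copies can be split between genes: Ftl1-ps1 held 18302 UMIs against 1761505 of Ftl1 in the CD11b+ pool.

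Ferroportin, Slc40a1 (chr1:45908068-45926523, - strand), the iron exporter, was nearly missing from heart macrophages of day 1 and present at steady state and from day 3 on. The CD45+ libraries held 34.0 CPM at steady state (129 UMIs) and 0.433 CPM on day 1 (1 UMI, exact 95% interval 0.011 to 2.41 CPM), followed by 6.85, 30.4 and 33.4 CPM on days 3, 5 and 7. The CD11b+ pool held 2.50 CPM on day 1 (13 UMIs), 23.2 CPM on day 3 and 43.7 CPM on day 5. Both experiments were lowest on day 1 and highest, of the 3 days they share, on day 5. Day 5 was above day 1 by a fitted +4.43 (SE 0.48, edgeR adjusted p = 0.00989), while day 3 against day 1 (+2.99) did not pass (adjusted p = 0.0695). Slc40a1 was seen in at most 5.30% of thinned macrophages of any heart sum, and in at most 15.2% before thinning (CD11b+ day 5), so most single cells showed no UMI at this depth.

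Neutrophils of the blood and heart pool held the highest Slc40a1 of all sums: 511, 600, 647, 566, 517, 401 and 261 CPM in hashtags 1 to 7. Monocytes/macrophages of the same hashtags held 2.70 to 4.64 CPM, so the groups lay far apart, and the fitted difference was +7.84 (SE 0.25, edgeR adjusted p = 2.46e-10, 7 of 7 hashtags). In log2(CPM + 1), without TMM factors, the 7 hashtags differed by 5.94 to 7.31, all below the fitted value. Thinned to 2000 UMIs, 57.5%, 63.9%, 68.4%, 63.3%, 59.0%, 48.5% and 32.1% of these neutrophils had a UMI, against 0 of 263 monocytes/macrophages of hashtag 7, which allows a share of up to 1.14%, and 0.433% to 0.851% of those of hashtags 1 to 6 (40.6% to 84.8% and 3.32% to 4.56% before thinning). Median depth was 3084 to 3808 UMIs in these neutrophils and 12070.5 to 14986.5 UMIs in the monocytes/macrophages. Dendritic cells and T cells of this pool held 0 to 18.9 CPM. A cluster of 45 cells led by Ctla2a, Pf4 and Gng11, which got no class name, held 233.6 CPM of Slc40a1 (exact 95% interval 177.8 to 301), which overlaps the value of hashtag 7 neutrophils. Another unnamed cluster, of 18 cells led by the neutrophil granule genes Camp, Ngp and Ltf, held 110.9 CPM of Slc40a1.

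In neutrophils of the infarcted heart Slc40a1 was 4.60, 85.0, 28.7 and 20.5 CPM on days 1, 3, 5 and 7 (4, 36, 3 and 2 UMIs) and 19.6, 59.6 and 40.1 CPM on days 1, 3 and 5 of the CD11b+ pool. The fitted class difference in the heart was +1.94 (SE 0.50, edgeR adjusted p = 0.00291), with 4 of 6 pairs higher: in both day 5 pairs the macrophage value was slightly above the neutrophil value. The day 5 against day 1 change differed between the classes by -3.91, which did not pass (edgeR adjusted p = 0.0514) but did with DESeq2 (adjusted p = 0.00374). Leaving out single sums moved it between -4.96 (without the day 1 macrophages of the CD11b+ pool, edgeR adjusted p = 0.00258) and -2.18 (without the day 1 neutrophils of that pool, adjusted p = 0.527), and it also passed without CD45+ day 1 neutrophils (adjusted p = 0.0313), CD45+ day 3 neutrophils (adjusted p = 0.0432) or CD45+ day 1 macrophages (adjusted p = 0.00534).

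**Figure D2:**
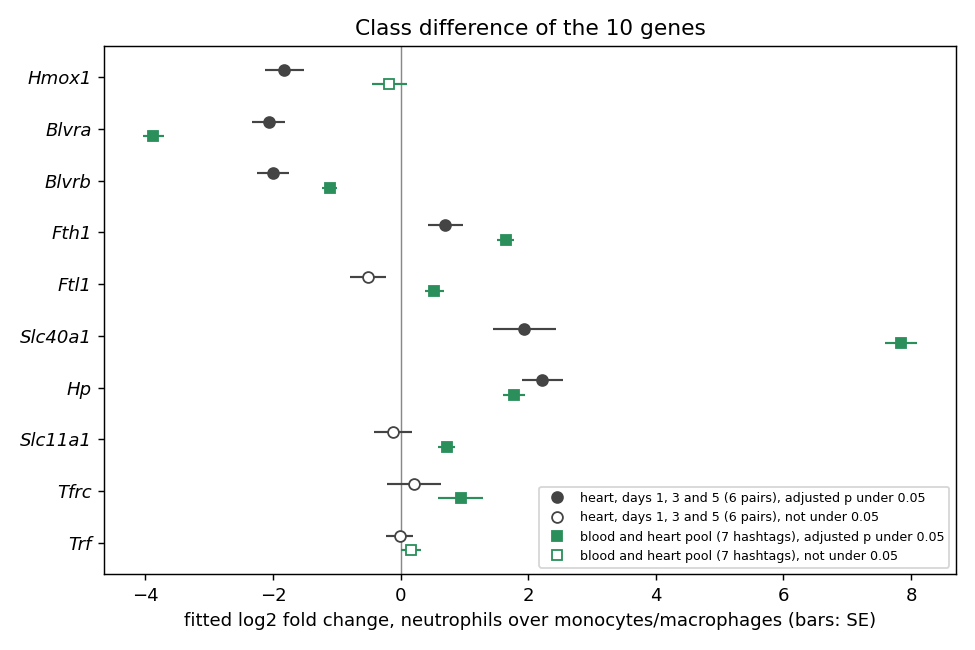
Fitted log2 difference of neutrophils against monocytes/macrophages for each heme and iron gene, in 6 heart pairs and in 7 hashtags of the blood and heart pool; bars are standard errors and filled points have an edgeR adjusted p under 0.05. Slc40a1 lies at +1.94 in the heart and at +7.84 in the blood and heart pool, and Hmox1 at -1.82, which passes, and at -0.18, which does not.

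Haptoglobin, Hp (chr8:109575128-109579172, - strand), was found in neutrophils and, among heart monocytes/macrophages, was highest on day 1 in both experiments. Neutrophils held 1780, 2243, 650 and 778 CPM on days 1, 3, 5 and 7 of the CD45+ libraries and 1233, 308 and 476 CPM on days 1, 3 and 5 of the CD11b+ pool. Monocytes/macrophages held 5.01 CPM at steady state (19 UMIs) and 1582, 787, 190 and 79.7 CPM on days 1, 3, 5 and 7, and 242, 98.9 and 31.2 CPM in the pool. Within each experiment the macrophage value was lower at each later day from day 1 on, while the ranges of the classes overlapped through the CD45+ libraries. Hp was higher in neutrophils in 6 of 6 heart pairs (+2.22, SE 0.32, edgeR adjusted p = 1.61e-05) and in 7 of 7 hashtags (+1.78, SE 0.17, edgeR adjusted p = 1.26e-06). In log2(CPM + 1), without TMM factors, the 7 hashtags differed by 0.651 to 1.456, all below the fitted value. In the pool neutrophils held 1401 to 3082 CPM, with the lowest in hashtag 7, and monocytes/macrophages 892 to 1308 CPM.

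In the CD45+ day 1 library the summed neutrophil markers of macrophages were 16133 CPM against 201970 CPM in neutrophils, whereas Hp was 1582 CPM against 1780 CPM. With classes from each cell's own markers this library held 183 monocytes/macrophages and 291 neutrophils, in place of 245 and 216. The part of neutrophil RNA in the macrophage Hp of this library was not tested. The T cells of hashtag 2 in the blood and heart pool, which should lack the gene, held 327 CPM of Hp (57 UMIs in 21 cells).

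Macrophage Hp fell from day 1 to day 5 by 3.24 on the log2 scale (SE 0.19, edgeR adjusted p = 0.00476). The fall from day 1 to day 3 was 1.36 (SE 0.18, edgeR adjusted p = 0.0486), and was lost without CD45+ day 3 (adjusted p = 0.223), without CD11b+ day 3 (adjusted p = 0.443) and with total counts (adjusted p = 0.091). The day fits had 6 sums per class, 2 per day, with the experiment as a block, and without that block no heme or iron gene passed in any of them (Hp adjusted p = 0.502 and Slc40a1 adjusted p = 0.172 for day 5 against day 1).

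Slc11a1 (chr1:74375195-74386062, + strand) was present in both classes. Monocytes/macrophages held 171 CPM at steady state and 228, 275, 195 and 168 CPM on days 1, 3, 5 and 7, and 289, 226 and 219 CPM in the CD11b+ pool. Neutrophils held 223, 194, 47.8 and 61.5 CPM on days 1, 3, 5 and 7, and 342, 150 and 126 CPM in the pool. The heart classes overlapped, 1 of 6 pairs was higher in neutrophils, the widest gap was that of CD45+ day 5 (5 UMIs in neutrophils), and the difference did not pass (edgeR adjusted p = 0.761). In the blood and heart pool the call (+0.72, SE 0.13, edgeR adjusted p = 2.69e-04) was lost with total counts, and 3 of 7 hashtags were higher in neutrophils by CPM.

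Trf (chr9:103204001-103230444, - strand), transferrin, stood out at steady state with 1710 CPM in macrophages. It was 278, 190, 373 and 542 CPM on days 1, 3, 5 and 7, and 292, 158 and 251 CPM on days 1, 3 and 5 of the CD11b+ pool. Neutrophils held 228, 229, 325 and 359 CPM and, in the pool, 164, 103 and 183 CPM. The classes overlapped in the heart (edgeR adjusted p = 0.968) and in the blood and heart pool (adjusted p = 0.359).

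Tfrc (chr16:32608920-32632794, + strand), the transferrin receptor, was rare. Monocytes/macrophages held 4.07 to 9.79 CPM in the CD45+ libraries and 11.5, 13.6 and 25.1 CPM on days 1, 3 and 5 of the CD11b+ pool. Neutrophils of the CD45+ libraries had 1 UMI on day 1 and 0 on days 3, 5 and 7, which allows up to 8.71, 35.2 and 37.8 CPM (upper exact 95% bounds), and those of the pool held 5.34, 32.8 and 26.0 CPM. The heart classes overlapped and did not differ beyond the spread (edgeR adjusted p = 0.696). Tfrc of the blood and heart pool stayed at 0.883 to 3.71 CPM in monocytes/macrophages and at 1.12 to 2.93 CPM in neutrophils of hashtags 1 to 6, with 15.8 CPM in neutrophils of hashtag 7. The call there (+0.94, SE 0.35, edgeR adjusted p = 0.026) was lost without hashtag 7 (+0.57, adjusted p = 0.134) and without hashtag 5 (+0.76, adjusted p = 0.0757), and also with total counts (adjusted p = 0.402), no filter on low counts (0.061), cells of up to 25% mitochondrial UMIs (0.268) or classes from each cell's own markers (0.091). The highest Tfrc of any group was in 18 cells of the CD11b+ pool led by Ctsk, Acp5 and Nfatc1, genes known from bone-resorbing cells, with 254 CPM (327 UMIs) beside 101 CPM of Hmox1; this group got no class name.

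Over time, the macrophages of the CD45+ libraries give the only view of steady state and day 7, with 1 library per time point and so with no test. Among 4307 genes of at least 20 CPM, 14.5% were past 2-fold higher and 21.9% past 2-fold lower on day 1 than at steady state. Of the heme and iron genes 9 reach that level (Tfrc does not). Fth1 (+2.13 log2) and Hp (+8.30) were past 2-fold higher on day 1. Blvrb (-3.61), Trf (-2.62) and Slc40a1 (-6.30, counting interval -11.6 to -3.79, from 1 UMI on day 1) were past 2-fold lower. Resident-like macrophages made up 407 of the 520 steady state cells, and 240 of the 245 day 1 cells fell into 1 Arg1-high inflammatory-like cluster, so these steps set different cells side by side.

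From day 1 to day 3, 17.9% of genes were past 2-fold higher and 4.13% lower. Slc40a1 (+3.98), Blvrb (+2.17) and Blvra (+1.36) were among the higher and Hp (-1.01) among the lower. From day 3 to day 5 (2.93% higher, 2.35% lower) Slc40a1 was higher by 2.15 and Hp lower by 2.05 on the log2 scale. From day 5 to day 7 (0.975% higher, 1.18% lower) Hp alone of the 9 was past 2-fold, on the lower side. Between steady state and day 7 (8.22% higher, 5.11% lower) Hp was higher and Trf lower past 2-fold, and Slc40a1 was at 34.0 and 33.4 CPM.

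**Figure D3:**
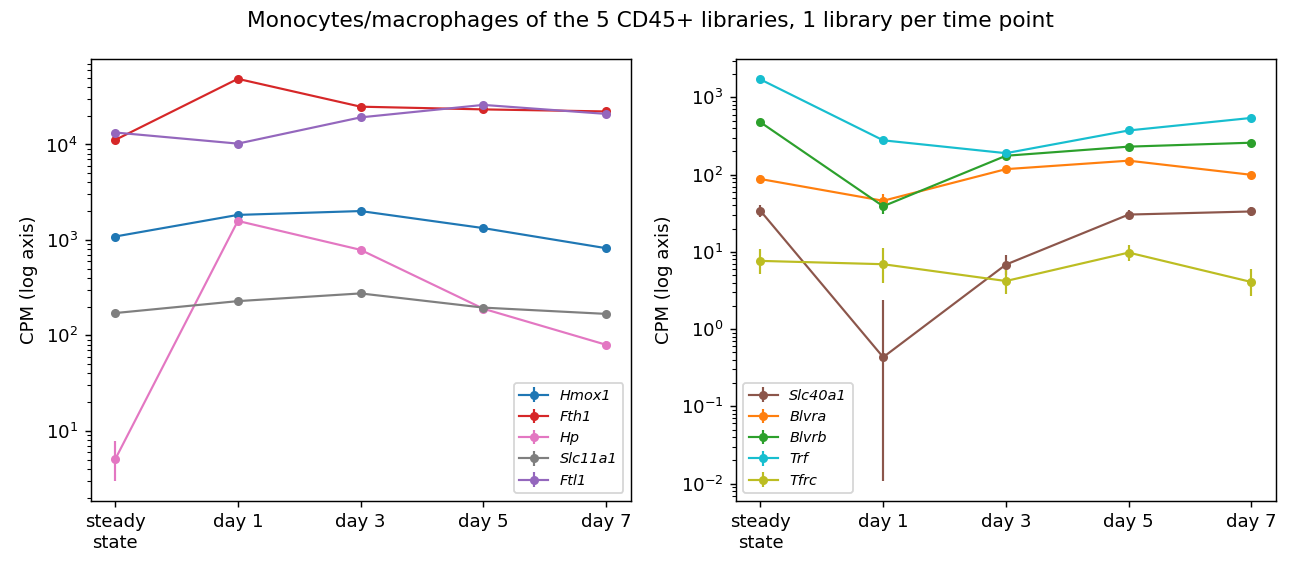
Level of each heme and iron gene in monocytes/macrophages of the CD45+ libraries at steady state and on days 1, 3, 5 and 7, with exact Poisson 95% intervals. Slc40a1, Blvrb and Trf are lowest on day 1 or day 3, Hp and Fth1 are highest on day 1, and Hmox1 is highest on day 3.

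Both experiments together tested days 1, 3 and 5. In monocytes/macrophages 0.574% of 10626 genes passed between day 3 and day 1 (0.151% higher and 0.423% lower) and 9.51% between day 5 and day 1 (4.15% higher and 5.36% lower). Of the 10 heme and iron genes, 1 passed in the first comparison (Hp) and 3 in the second: Slc40a1 and Ftl1 rose and Hp fell. Ftl1 rose by 0.87 (SE 0.16, edgeR adjusted p = 0.0288), from 10215 to 25995 CPM in the CD45+ libraries and from 12250 to 22428 CPM in the pool, and lost the call without CD45+ day 3 (adjusted p = 0.0698) or CD45+ day 5 (adjusted p = 0.0792). With total counts the calls between day 5 and day 1 split into 422 higher and 282 lower, in place of 441 and 570. Hmox1 had a fitted -0.17 between day 5 and day 1 (edgeR adjusted p = 0.722) and took opposite courses in the 2 experiments: 1829 to 1330 CPM in the CD45+ libraries and 1559 to 2360 CPM in the pool. Its sign turned with total counts (+0.07) and without CD45+ day 1 (+0.37) or CD45+ day 5 (+0.32). Blvra (+0.91, adjusted p = 0.0819), Blvrb (+1.38, adjusted p = 0.081) and Fth1 (-0.66, adjusted p = 0.261) did not pass. Between day 5 and day 3 no gene passed in edgeR; unadjusted p-values under 0.05 numbered 770, and DESeq2 called 85 genes.

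In neutrophils 2.5% of 6200 genes passed between day 3 and day 1 (0.565% higher and 1.94% lower), none of them a heme or iron gene. Between day 5 and day 1 7.65% passed (2.1% higher and 5.55% lower), and 4 of the 10 genes fell: Slc11a1 by 2.53 (SE 0.48, edgeR adjusted p = 0.00492), Hp by 2.34 (SE 0.56, adjusted p = 0.0195), Fth1 by 2.09 (SE 0.61, adjusted p = 0.0437) and Hmox1 by 1.80 (SE 0.42, adjusted p = 0.0167). Each rests on 40 cells of the CD45+ day 5 library, where Slc11a1 had 5 UMIs, and without that library none of the 4 passed (adjusted p = 0.213 for Slc11a1, 0.34 for Hp, 0.224 for Fth1 and 0.316 for Hmox1). Hmox1 (adjusted p = 0.101) and Hp (adjusted p = 0.0719) were also lost without CD11b+ day 5, and Fth1 without CD45+ day 3 (adjusted p = 0.0961) or CD11b+ day 3 (adjusted p = 0.0638). Leaving out barcodes above 5 hemoglobin UMIs per 10000 took this sum to 16 cells, under the 30 needed, so that it dropped out whole, and again none of the 4 passed. With total counts the median log2 change of all genes moved from -0.03 to +0.90, calls split into 1159 higher and 93 lower in place of 130 and 344, and 2 of the 10 genes passed, 1 in each direction. Day 5 against day 3 gave 0 calls in edgeR and 1 in DESeq2, and unadjusted p-values under 0.05 numbered 134. The day 5 against day 1 change differed between the classes for 0.807% of 10164 genes (0.403% in each direction, 41 and 41 genes, or 751 and 22 with total counts), and the day 3 against day 1 change for 0.0197%, all lower. None of the 10 passed in either: for day 5, Slc40a1 had the lowest adjusted p, followed by Ftl1 (-1.78, edgeR adjusted p = 0.0776).

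Macrophage states were clusters made without the heme and iron genes and named from markers. They describe where the genes lie and were not tested. In the CD11b+ pool, 7 of the 10 genes were highest in 1 of 3 Trem2/Gpnmb-like clusters, a state known for handling lipid and debris. Of the 7080 genes of at least 10 CPM over these 8 clusters, 28.7% were highest in 1 of the same 3. With cells of up to 25% mitochondrial UMIs kept, only 2 clusters had that name, the count was 4 of 10 and the share of all genes 19.1%. The cluster led by Fabp5, Spp1 and Mmp12 (465 cells) held the most Hmox1 at 4076 CPM (exact 95% interval 4047 to 4105), the most Fth1 at 31562 CPM, the most Ftl1 at 29442 CPM and the most Slc40a1 at 66.2 CPM. Its Hmox1 was 4136 CPM on day 3 and 4014 CPM on day 5. The cluster led by Atf3, Rgs1 and Jun (369 cells) held 2927 CPM of Hmox1 and 37.9 CPM of Slc40a1. The cluster led by Selenop, Apoe and Gdf15 (338 cells) held 1280 CPM of Hmox1 but 38.9 CPM of Slc40a1, and the most Trf (446 CPM), Blvrb (261 CPM) and Tfrc (33.6 CPM). Over all days together these 3 clusters lay between 37.9 and 66.2 CPM of Slc40a1 and between 1280 and 4076 CPM of Hmox1.

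The Ly6c2 monocyte-like cluster (603 cells) held 1275 CPM of Hmox1 and 1.51 CPM of Slc40a1, with the most Hp (252 CPM) and Slc11a1 (314 CPM). Arg1-high inflammatory-like cells (321) held 2013 CPM of Hmox1 and 2.56 CPM of Slc40a1. Proliferating-like cells (321) held 2521 CPM of Hmox1, 29.7 CPM of Slc40a1 and the most Blvra (125 CPM). MHC II-high-like cells (133) had the lowest Hmox1, 546 CPM, and the lowest Fth1 and Ftl1, 14451 and 10612 CPM. Interferon-like cells (71) held 61.8 CPM of Slc40a1 and 1487 CPM of Hmox1. Hmox1 and Slc40a1 therefore did not follow each other across these states: Arg1-high inflammatory-like cells had much of the first and little of the second.

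Within clusters, Slc40a1 was 53.1 CPM on day 3 and 78.8 CPM on day 5 in the Fabp5, Spp1 and Mmp12 cluster, 3.47 and 43.3 CPM in the Selenop, Apoe and Gdf15 cluster (38 cells on day 3, 4 UMIs), 41.0 and 36.7 CPM in the Atf3, Rgs1 and Jun cluster, and 18.4 and 43.0 CPM in proliferating-like cells. Slc40a1 was 0.804, 3.38 and 5.20 CPM (3, 8 and 9 UMIs) in Arg1-high inflammatory-like cells on days 1, 3 and 5. The Ly6c2 monocyte-like cells had 0, 20 and 1 UMIs of Slc40a1 on these days.

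**Figure D4:**
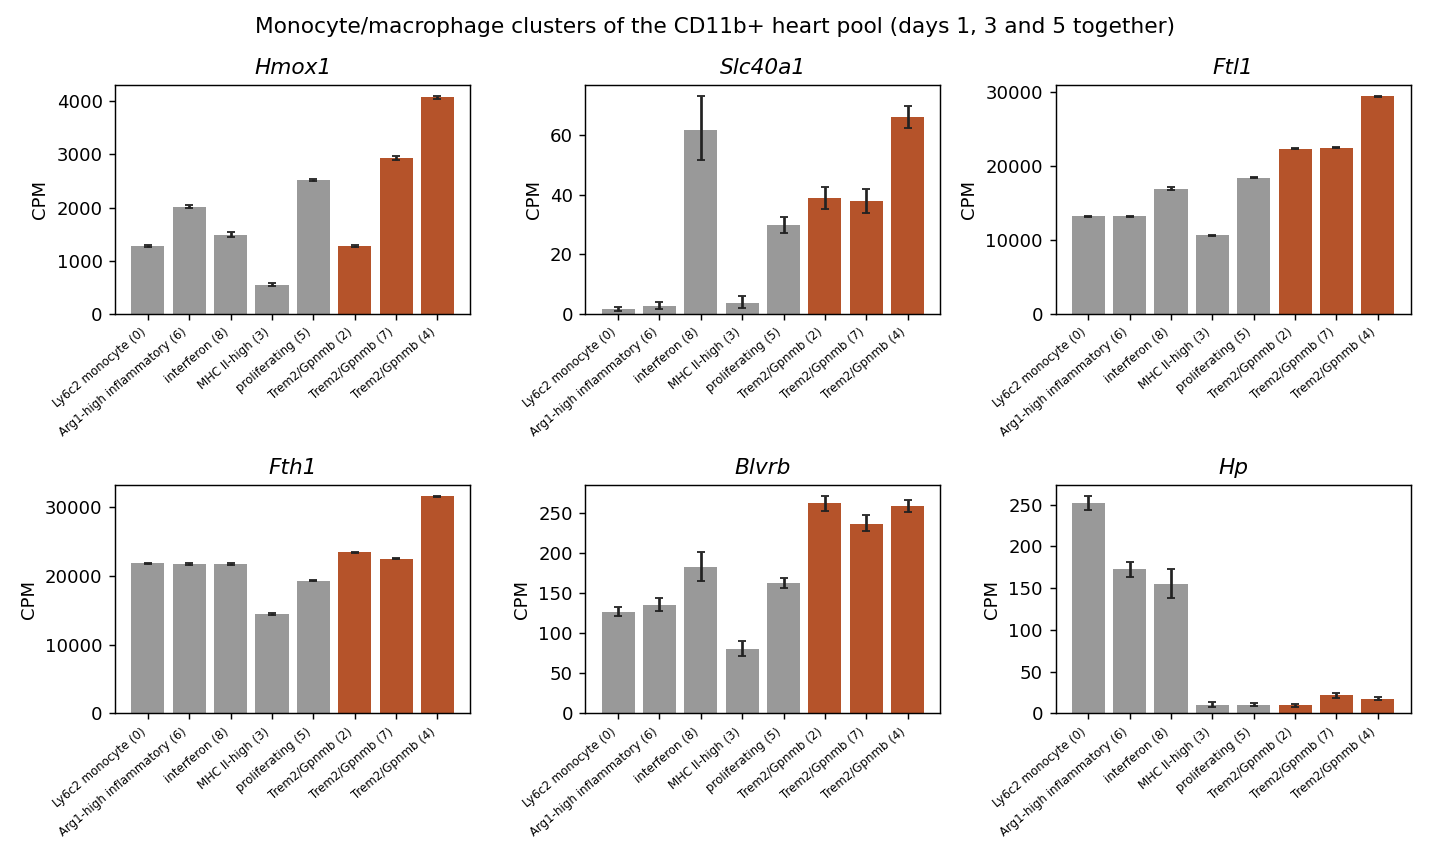
Level of Hmox1, Slc40a1, Ftl1, Fth1, Blvrb and Hp (CPM, axis from 0) in the named monocyte/macrophage clusters of the CD11b+ pool. Bars are exact Poisson 95% intervals, and Trem2/Gpnmb-like clusters are coloured. Hmox1 runs from 546 CPM in MHC II-high-like cells to 4076 CPM in the Fabp5, Spp1 and Mmp12 cluster, and Slc40a1 from 1.51 to 66.2 CPM.

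The states of the CD45+ libraries placed some of the genes elsewhere, with the most Ftl1 and Slc40a1 in the Trem2/Gpnmb-like cluster, the most Fth1 and Hp in Arg1-high inflammatory-like clusters and much Blvrb and Trf in resident-like cells. The Trem2/Gpnmb-like cluster (447 cells) held 2048 CPM of Hmox1, 30958 CPM of Ftl1 and 47.3 CPM of Slc40a1, which was 5.75 CPM on day 3, 49.6 on day 5 and 96.6 on day 7. Resident-like macrophages (464 cells, 407 of them at steady state) held 1074 CPM of Hmox1, 36.5 CPM of Slc40a1, 481 CPM of Blvrb and 1654 CPM of Trf. Ly6c2 monocyte-like cells (667) held 1623 CPM of Hmox1 and 5.69 CPM of Slc40a1. Of the 2 Arg1-high inflammatory-like clusters, 1 (241 cells, 240 of them from day 1) had 49210 CPM of Fth1, 1584 CPM of Hp and 0.434 CPM of Slc40a1, and S100a8, S100a9 and Lcn2, which neutrophils also express, were among its leading genes. The other (151 cells) had 2141 CPM of Hp. A cluster of 574 cells led by Ms4a7 and Gdf15 had hemoglobin genes among its leading genes and was left unnamed, with 612 CPM of Hmox1. In the blood and heart pool Arg1-high inflammatory-like cells (298) held 392 CPM of Hmox1, nonclassical monocyte-like cells 129 CPM and Ly6c2 monocyte-like cells 81.5 CPM.

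Over 53 sums of macrophage states per library or hashtag, with 5332 genes compared, the genes most like Hmox1 in log2(CPM + 1) were Fth1 (Pearson r = 0.95), Pdpn (r = 0.936) and Ctsl (r = 0.935). Slc40a1 was most like Nagk (r = 0.770), Blvrb (r = 0.735) and Lamp1 (r = 0.734), and Hp most like Fpr2 (r = 0.924), C3 (r = 0.919) and Mcemp1 (r = 0.908). The sums share libraries, depth and the gap between the digested hearts and the blood and heart pool, and these r are descriptions.

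Beyond the 10, 54 other genes of heme and iron handling were counted in 9 lists. In the heart class comparison 49 were tested, 10 higher and 20 lower in neutrophils (23.9% and 33.1% of all genes), with a median of -0.42 against -0.22 over all genes. Of 6 tested genes of heme and hemoglobin uptake and transport, 5 were lower in neutrophils and none higher, where 33.1% of all genes were lower; the list as a whole was not tested. The lowest of all were Cd163, the hemoglobin-haptoglobin receptor (-4.67, SE 0.53), Slc11a2, the endosomal iron transporter (-4.07, SE 0.42), and Steap3, a ferrireductase (-3.58, SE 0.58). The highest with counts in most sums were Steap4, a ferrireductase (+6.48, SE 0.45), and Lcn2, which binds bacterial iron carriers (+5.09, SE 0.43), with edgeR adjusted p under 0.05 for each. Hamp, which encodes the ferroportin-binding hormone hepcidin, also passed, but it had 43 UMIs in CD11b+ day 5 neutrophils and 0 to 5 in every other sum, was not tested without CD11b+ day 3 or CD11b+ day 5, and is given no fold. Steap4 was 25.4 to 189 CPM in heart neutrophils and 0.364 to 3.04 CPM in macrophages, with no overlap.

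Of the 54 genes 44 were tested in the blood and heart pool, 14 higher and 23 lower (38.1% and 45.5% of all genes), with Steap4 (+7.25), Slc7a11 (+4.77) and Lcn2 (+4.71) highest. The lowest were Cd163, Steap3 and Spic, a transcription factor of iron-recycling macrophages, for which no fold is given: the 7 neutrophil sums held 0 UMIs of Cd163 and 0 or 1 UMI each of Steap3 and Spic, against 0.164 to 15.4, 6.21 to 16.1 and 1.71 to 6.5 CPM in monocytes/macrophages. Of 8 heme synthesis genes, 6 were lower and 2 (Alas1 and Ppox) higher in neutrophils there, where 83.5% of all genes passed. Slc7a11, the cystine transporter, was 45.3 to 248 CPM in these neutrophils, and 1.01 to 1.99 CPM in the monocytes/macrophages of hashtags 1 to 5, with 52.2 and 41.3 CPM in hashtags 6 and 7.

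In heart macrophages Cd163 was 81.8 CPM on day 1, 5.19 on day 3 and 6.40 on day 5 in the CD45+ libraries, and 88.1, 9.15 and 5.39 CPM in the CD11b+ pool. Day 1 was the highest in both, and Cd163 fell by 3.75 between day 1 and day 3 (SE 0.28, edgeR adjusted p = 0.0278) and fell by 4.12 between day 1 and day 5 (SE 0.29, edgeR adjusted p = 0.0052). It was the only 1 of 48 tested list genes to pass between day 3 and day 1. Between day 5 and day 1, 2 of 48 rose, Fech, the last enzyme of heme synthesis (+1.11), and Slc48a1, a heme transporter of the phagolysosome (+0.94), and 8 fell, with Lcn2 (-7.05), Cd163 (-4.12) and Cp, ceruloplasmin (-2.69), the most. Lcn2, which neutrophils express, was 2926 and 4.17 CPM on days 1 and 5 of the CD45+ macrophages and 79.7 and 3.81 CPM in the pool, while their summed neutrophil markers were 16133 and 475 CPM and, in the pool, 1068 and 302 CPM. The part of these markers in the Lcn2 change was not tested. Cp was 29.1 CPM on day 1 and 4.32 CPM on day 5 of the CD45+ libraries but had only 3 to 13 UMIs a day in the pool, and lost its call without CD45+ day 1 (-1.34, adjusted p = 0.443), CD45+ day 3 (adjusted p = 0.0582) or CD45+ day 5 (adjusted p = 0.369). Fech (adjusted p up to 0.375) and Slc48a1 (up to 0.266) lost theirs without CD45+ day 3, CD45+ day 5, CD11b+ day 3 or CD11b+ day 5. Slc48a1 was 50.4, 97.6 and 136 CPM on days 1, 3 and 5 of the CD45+ libraries and 102, 157 and 195 CPM in the pool. In neutrophils 30 list genes were tested. Lcn2 was the only 1 to pass between day 3 and day 1 (-4.03), and Lcn2 (-4.53), Mafg (-1.82) and Alas1 (-1.40) fell between day 5 and day 1. Mafg and Alas1 were lost without CD45+ day 5 (adjusted p = 0.399 and 0.495) or CD11b+ day 5 (adjusted p = 0.0767 and 0.153).

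Red cell RNA differed between the experiments and, in monocytes/macrophages, was highest on day 5 in both. In CD45+ neutrophils Hba-a1, Hba-a2, Hbb-bs and Hbb-bt together held 136, 517, 783 and 348 CPM on days 1, 3, 5 and 7. Neutrophils of the CD11b+ pool held 11.6, 14.5 and 11.9 CPM on days 1, 3 and 5, with no peak on day 5. Hba-a1 in monocytes/macrophages was 69.3 CPM at steady state and 35.5, 56.6, 843 and 46.2 CPM on days 1, 3, 5 and 7 of the CD45+ libraries, and 1.34, 1.79 and 15.5 CPM in the CD11b+ pool. Hbb-bs was 272 CPM at steady state and 65.8, 180, 1422 and 157 CPM on days 1, 3, 5 and 7, and 1.73, 3.16 and 17.7 CPM in the pool. Between day 5 and day 1 Hba-a1 rose by 3.97 (SE 0.30, edgeR adjusted p = 0.0052) and Hbb-bs by 3.83 (SE 0.27, edgeR adjusted p = 0.0052). A few barcodes carried most of it: 5 macrophage barcodes of CD45+ day 5 had over 100 hemoglobin UMIs per 10000, up to 4048, and 3 of CD11b+ day 5 up to 1065. Without such barcodes Hba-a1 rose by 1.58 (adjusted p = 0.0436) and Hbb-bs by 1.76 (adjusted p = 0.0136). With barcodes above 5 per 10000 left out, neither passed (+0.33, adjusted p = 0.563, and +0.99, adjusted p = 0.139). Both limits are set on the hemoglobin genes themselves and so cap the values that are tested. The limit of 5 took out 370 of 734 macrophages on CD45+ day 5 and 9 of 245 on CD45+ day 1. These 2 fits therefore cannot decide whether the hemoglobin genes rose.

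Hmox1 was also compared between cells with little and with more red cell RNA. In CD45+ day 5 macrophages it was 1190 CPM of non-hemoglobin UMIs in the 364 cells with at most 5 hemoglobin UMIs per 10000 and 1393 CPM in the 365 cells between 5 and 100. At steady state the values were 1068 and 1125 CPM, on day 1 they were 1832 and 1622 CPM (236 and 9 cells), on day 3 they were 2007 and 2011 CPM, and on day 7 they were 799 and 1177 CPM, the latter in 42 cells. Among the 5 barcodes above 100 on CD45+ day 5, Hmox1 was 1338, 1519, 3684, 13797 and 14400 CPM. Barcodes of the same library with 20.7, 27.7 and 39.7 hemoglobin UMIs per 10000 held 346, 17718 and 2429 CPM. In the CD11b+ pool the cells with at most 5 held 2500 CPM on day 3 and 2342 CPM on day 5. The barcodes between 5 and 100 held 10360 CPM on day 3 (1 barcode) and 8100 and 13752 CPM on day 5, and the 3 above 100 on day 5 held 426, 657 and 1116 CPM. High and low Hmox1 thus both occurred among barcodes with red cell RNA. Whether a barcode holds a macrophage that took up a red cell, or a red cell beside it, was not tested.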

How the data were processed

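Single-cell libraries were made by droplet capture, and the deposited matrices hold raw UMI counts per gene and cell. Cell Ranger 3.0.2 made the matrices of both pools, per the file headers. The build is mm10, per the submitters' processing notes for the CD45+ and CD11b+ samples. Its settings are not given in the sources used here.

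Cells needed 200 genes and no more than 10% mitochondrial UMIs. Hashtags were called with a Gaussian mixture of 2 parts, and barcodes with several or no hashtags were left out (6.28% and 7.81% in the CD11b+ pool, 12.5% and 1.40% in the blood and heart pool). Scrublet was run on each CD45+ library and marked 18 barcodes in all, 2 to 6 per library, which were left out; in the pools, barcodes with several hashtags were taken as doublets instead. Clusters (scanpy 1.11.5, Leiden resolution 0.5, 2000 variable genes, 30 components, 70 heme, iron and hemoglobin genes left out) were named from marker lists, by a rule set after the clusters were seen. The heme and iron genes, the marker lists and the other lists were chosen with earlier results of these data known. Counts were summed per class and library or hashtag, and sums of at least 30 cells were tested with edgeR 4.0.16. The settings were R 4.3.3, filterByExpr, TMM, quasi-likelihood and Benjamini-Hochberg over all genes at 0.05. The fits were also run on counts simulated from their own fitted values, and the outcome is not given here. Class fits had the library or hashtag, and day fits the experiment, as a block. DESeq2 1.42.0 was an alternative. The tested sums held 104690 to 868768 UMIs in CD45+ neutrophils and 2311061 to 7155943 in CD45+ macrophages. The day 7 neutrophil sum, of 28 cells and 97624 UMIs, was described and not tested. Exact Poisson 95% intervals and limits of 3 counts cover counting error only. The alternative that leaves out barcodes above 100 hemoglobin UMIs per 10000 was chosen after seeing the data. For shares, cells of at least 2000 UMIs were thinned to 2000 UMIs and shallower cells were left out. Shares before thinning cover all cells of the class. All 10 genes were described, and of the other lists the 3 highest and 3 lowest that passed were named. The share of all genes highest in a Trem2/Gpnmb-like cluster was added after seeing the data. Likeness ranks the 3 genes with the highest r.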

Additional observations from a re-analysis of the deposited data

Results flagged for a closer look

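In the blood and heart pool, the class difference of 2 genes had 1 value of 7 apart from the rest; which tissue or condition these hashtags hold is not known. Fth1 was 1.57 log2 units higher in neutrophils in hashtag 1, above the other hashtags, and Blvra was at -2.88 in hashtag 7, the smallest difference of the 7. Of 20 groups of differences examined, 2 were picked out this way, and chance alone picks about 1 in 20.

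The day 5 against day 1 change of 2 hemoglobin genes differed between the classes: Hba-a1 by -3.225 (edgeR adjusted p = 0.0435) and Hba-a2 by -3.792 (edgeR adjusted p = 0.0435), the rise being larger in macrophages. Without barcodes above 100 hemoglobin UMIs per 10000, a limit set on the hemoglobin genes themselves, the Hba-a1 value was -0.82 (adjusted p = 0.579). Hba-a1 also lost its call in 11 of 12 fits that left out 1 sum, with values from -4.46 to -2.68, and kept it without CD11b+ day 1 macrophages.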

How the results depend on the processing

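The class differences of Hmox1, Blvra and Blvrb in the heart and of Slc40a1, Hp, Fth1, Blvra and Blvrb in the blood and heart pool kept their direction and call under each alternative run. Of single-gene results, 390 kept direction and call (or, for shares of cells with a UMI, their value) under other settings, and 69 lost and 18 gained a call. A further 9, all of them shares of cells, moved beyond their counting interval without thinning. In addition 2 turned: Ftl1 in the blood and heart pool (-0.051, total counts) and Hmox1 of macrophages between day 5 and day 1 (0.068, total counts). Leaving out 1 library or sum kept 318, lost 43, gained 19 and turned 3, all Hmox1: 0.072 without hashtag 7 in the blood and heart pool (range -0.309 to 0.072), and 0.37 and 0.319 in macrophages between day 5 and day 1 without CD45+ day 1 or day 5 (range -0.607 to 0.37).

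Without the replicate block, that is, without pairing by library or experiment, 3 in place of 6 of the 10 genes passed in the heart class comparison, and 0 in the macrophage day 3 against day 1 (1 before), macrophage day 5 against day 1 (3) and neutrophil day 5 against day 1 (4) comparisons. The pairing is by shared library or hashtag, from the labels.

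For macrophage day 3 against day 1, DESeq2 gave 3 genes, no filter on low counts 4 and only the 2 days compared 2, while total counts, leaving out barcodes above 5 hemoglobin UMIs per 10000, the 25% mitochondrial limit and classes from each cell's own markers gave 0, and leaving out 1 sum gave 0 to 7. For macrophage day 5 against day 1, DESeq2 and no filter gave 5 each, and leaving out 1 sum 2 to 7. For macrophage day 5 against day 3, with 0 before, DESeq2 and no filter gave 2 each and only the 2 days compared 4, and leaving out 1 sum 0 to 4. For neutrophil day 3 against day 1, with 0 before, DESeq2, total counts and the hemoglobin filter gave 1 each and no filter 2, and leaving out 1 sum 0 to 3. For neutrophil day 5 against day 1, total counts gave 2, the hemoglobin filter 0 and own markers 1 (in neutrophils the hemoglobin filter also removes the CD45+ day 5 sum, left with 16 cells), and leaving out 1 sum 0 to 5. For the class difference in day 5 against day 1, DESeq2 gave 4, no filter 5 and leaving out 1 sum 0 to 4; in day 3 against day 1 leaving out 1 sum gave 0 to 1; in day 5 against day 3 no filter gave 1 and leaving out 1 sum 0 to 1. The genes highest in a Trem2/Gpnmb-like cluster were 4 in place of 7 with the 25% limit, where 2 and not 3 clusters had the name. The causes were not tested.

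The day comparisons rest on 2 sums a day. Over all genes, calls ranged from 0 to 3441 for macrophage day 5 against day 1 and from 0 to 1252 for neutrophil day 5 against day 1. Depth limits Tfrc in CD45+ neutrophils and Slc40a1 of day 1 macrophages, with 0 or 1 UMI.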
